A study of Mus musculus with 7 samples.

Results

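The 9 genes described here, Shh, Ptch1, Boc, Hhip, Smo, Sufu, Gli1, Gli2 and Gli3, form the core of the Hedgehog pathway. They were chosen by symbol from the 56941 genes of the gene tables, and each symbol occurred once. Single nuclei were profiled from primary small cell lung cancers of 4 male mice, each taken at endpoint. The 2 RP animals (RP1 and RP2) carried Rb1 fl/fl and Trp53 fl/fl, and the 2 RPC animals (RPC1 and RPC2) carried the same alleles together with a conditional loss of Casp8, written Casp8-/- in the labels. All 4 animals had inhaled, as young adults, adenovirus with Cre recombinase under the ubiquitously active CMV promoter, so the alleles could be deleted in any infected lung cell and not in one cell type alone. No animal without Cre and no normal lung was part of the series. The 7 libraries each pooled nuclei of all 4 animals, which left the animal as the replicate (n = 2 per genotype).

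Hedgehog signaling starts when a secreted ligand such as Shh binds Ptch1, a membrane receptor that otherwise holds the transducer Smo inactive. Boc is a co-receptor that helps the ligand bind, and Hhip is a membrane protein that captures the ligand and dampens the signal. Active Smo moves into the primary cilium and releases the Gli transcription factors from Sufu. Gli1 and Gli2 act mainly as activators and Gli3 mainly as a repressor. Gli1, Ptch1 and Hhip are themselves target genes, so their RNA is commonly read as a sign of pathway activity. In the developing lung the ligand comes from the epithelium and the response lies in the surrounding mesenchyme. In small cell lung cancer the pathway has been studied as a requirement for tumor maintenance.

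After the quality limits were applied, 38254 nuclei with 194735436 transcripts remained, with 32256394 to 70517884 transcripts per animal. The median nucleus held 2223 to 2255 transcripts in RP and 2767 to 3392 in RPC. The ribosomal RNA gene Rn18s-rs5 took 8.51% or more of the transcripts of each RP animal and 3.13% and 5.38% of those of the RPC animals. No barcode was shared between animals. Clusters were named by marker genes with the 9 genes and 47 other pathway genes left out of the clustering, and 32237 nuclei were tumor-like. In these, Casp8 stood at 57.1 and 60.5 CPM in RP and at 91.7 and 66.9 CPM in RPC, where CPM gives a gene's transcripts relative to all transcripts of the same nuclei. Counts over a whole gene include RNA from the exons and introns that recombination leaves in place, so this value checks neither the label nor the deletion.

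Neuroendocrine marker RNA was also found in the non-tumor classes. The median neuroendocrine marker reached 57.2% to 87.5% of its tumor-like level in alveolar type 2-like nuclei and 66.2% to 82.5% in smooth muscle or pericyte-like nuclei. It reached only 7.73% in the fibroblast-like nuclei of RPC2, the single animal with at least 20 of them. Its part in the levels of Ptch1, Gli3 and Sufu in these classes was not tested. Parts of the non-tumor classes were also unusually deep. Of the 495 alveolar type 2-like nuclei, 270 lay in a cluster at 5.58 times the median depth of their animal. Of the 924 club-like nuclei, 160 lay in a cluster at 9.30 times. No doublet caller was run, so the class levels below may include nuclei mixed with tumor RNA, and this was not tested.

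In tumor-like nuclei the 9 genes fell into 3 tiers. Gli3, Ptch1 and Sufu were read at 35.1 to 177 CPM in every animal. Gli2, Boc, Hhip and Smo stood between 0.308 and 4.87, and Gli1 and Shh at 0.253 or less. Per kilobase of exon, Gli3 came first with 9.23 to 17.7 CPM, ahead of Sufu with at most 8.30 and Ptch1 with 2.92 to 6.33. The ranges of Sufu and Ptch1 overlapped, and so did those of Boc, Gli2 and Hhip, which all lay between 0.0740 and 0.590. Since nuclear RNA holds introns, the order was also taken per 100 kilobases of gene span, and there Ptch1 came first with 65.9 to 143, ahead of Sufu with 38.2 to 83.4 and Gli3 with 34.6 to 66.4. On both scales Gli3, Ptch1 and Sufu stayed apart from the other 6 genes, although their own order changed. The middle and lower tiers overlapped on both scales, since per kilobase of exon Smo began at 0.0349 and Shh reached 0.0508, and per 100 kilobases of span Gli2 began at 0.524 and Gli1 reached 2.09.

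**Figure D1:**
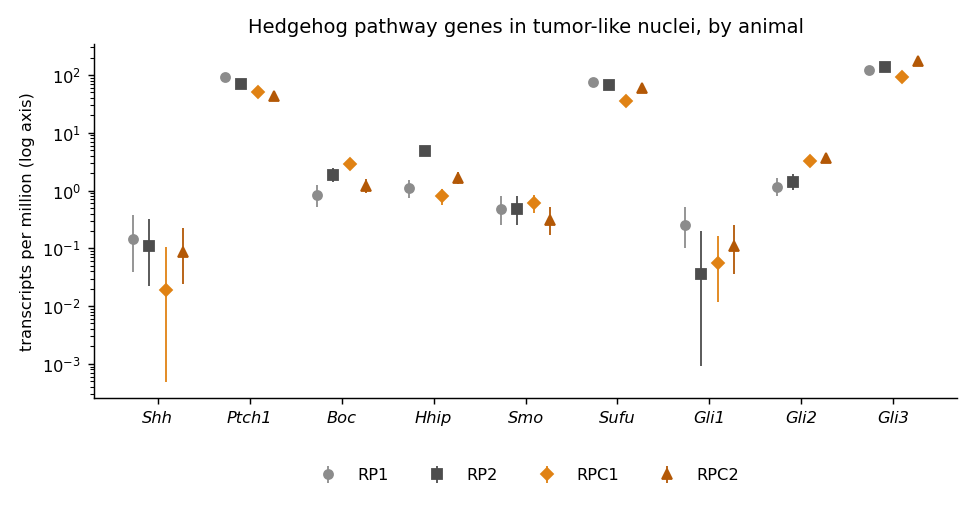
Levels of the 9 genes in tumor-like nuclei, in CPM on a log axis. Each point is 1 animal (gray RP, orange RPC) and bars are exact 95% Poisson intervals for counting error only. Gli3, Ptch1 and Sufu sit between 35.1 and 177 in all 4 animals, while Gli1 and Shh stay at 0.253 or less.

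Shh, the ligand, was nearly absent from the data. In all kept nuclei 59 transcripts were counted, of which 4 and 3 lay in tumor-like nuclei of RP1 and RP2 and 1 and 4 in those of RPC1 and RPC2. The epithelial classes held most of the rest, with 18 in club-like, 17 in alveolar type 2-like and 7 in alveolar type 1-like nuclei. Pooled over animals, the level was 2.50 CPM in alveolar type 2-like nuclei (exact Poisson 95% interval 1.45 to 4.00) and 4.59 in alveolar type 1-like nuclei (1.85 to 9.46). These intervals leave out the spread between animals, which ran from 1.40 to 17.3 CPM in alveolar type 2-like nuclei and from 0 to 6.03 in alveolar type 1-like nuclei, where an animal of each genotype was at 0. No transcript of Shh was found in fibroblast-like, ciliated-like, mesothelial-like or T or NK cell-like nuclei, and in the fibroblast-like nuclei of RPC2 a count of 0 allows up to 35.7 CPM (3 counts). Shh did not pass edgeR's filter on low counts. DESeq2, which keeps such genes, gave a log2 difference from tumor-like nuclei of 5.92 in alveolar type 1-like nuclei (SE 1.09, adjusted p = 7.61e-07). In alveolar type 2-like nuclei it gave 5.71 (SE 0.96, adjusted p = 8.89e-08). The same fit gave 3.64 (SE 1.33) in T or NK cell-like nuclei, where no Shh transcript was counted. Its median over all genes was 1.62 in alveolar type 1-like and 0.63 in alveolar type 2-like nuclei. The size of these differences is therefore uncertain at such low counts. Shh lies on chromosome 5 (GRCm39, 28661813 to 28672254, minus strand) and is short, at 10.4 kilobases.

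Ptch1, the receptor and a target gene, gave the largest difference between genotypes among the abundant members. It lies on chromosome 13 (GRCm39, 63656142 to 63721412, minus strand). In tumor-like nuclei it stood at 93.3 and 69.7 CPM in the RP animals, against 51.3 and 43.0 CPM in the RPC animals. Both RPC animals were below both RP animals. The fitted log2 fold change of RPC against RP was -0.85 (SE 0.21), a 1.80-fold lower level, with an unadjusted p of 0.00868 and an adjusted p of 0.272 (edgeR quasi-likelihood test over 20110 genes), so it did not pass the threshold of 0.05. In DESeq2 the adjusted p was 0.0910.

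The libraries of an animal gave like values for Ptch1. Over the 7 sublibraries, RP1 ranged from 82.2 to 102 CPM and RP2 from 66.6 to 72.2, while RPC1 ranged from 44.8 to 56.5 and RPC2 from 36.9 to 47.4, so no RPC sublibrary reached an RP sublibrary. These are repeat measurements of the same nuclei preparations and not further animals. The difference was also seen within tumor-like clusters. Of the 5 clusters with at least 50 nuclei in an animal of each genotype, a minimum set after the clusters were seen, RPC lay below RP in 4 and the animals overlapped in 1. Some of these clusters set 1 RPC animal against 2 RP animals. The clusters come from the same 4 animals and add no replicates, and the share of all genes ordered this way was not taken. The same holds for the counts of shared clusters given for other genes. In one of the clusters shared by all 4 animals, the RP animals stood at 69.2 and 70.2 and the RPC animals at 40.8 and 47.7. After each nucleus was thinned to 1000 transcripts, a Ptch1 transcript was found in 7.63% ± 1.26 of RP and 4.44% ± 0.47 of RPC nuclei (SD, n = 2). Without thinning, where RPC nuclei hold more transcripts, the shares were 23.2% and 18.1%.

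**Figure D2:**
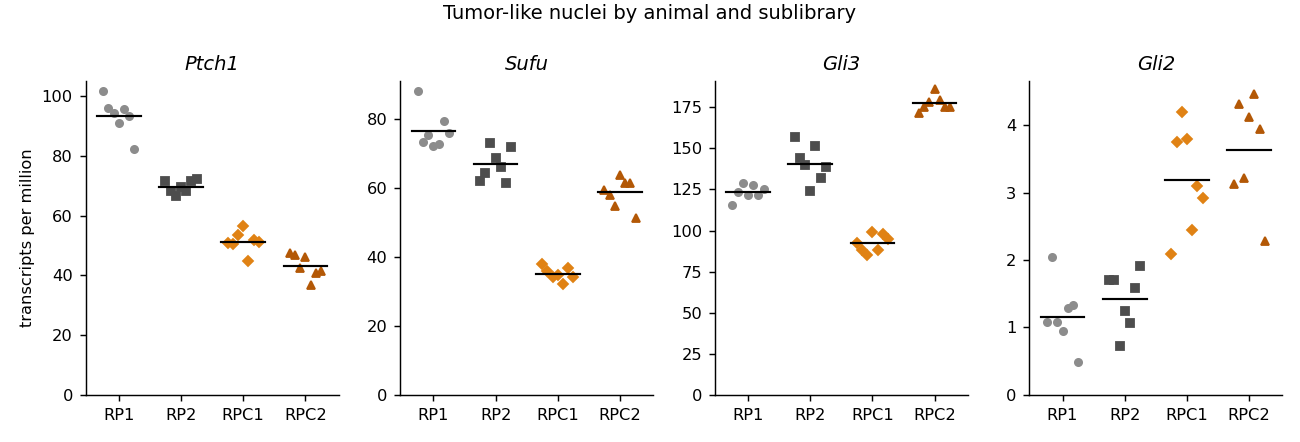
Ptch1, Sufu, Gli3 and Gli2 in tumor-like nuclei, in CPM. Points are the 7 sublibraries of each animal, which are technical repeats, and lines are the values of the whole animal. Ptch1 separates the genotypes in every sublibrary, while the Gli3 values of RPC1 and RPC2 lie on either side of both RP animals.

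Sufu, which restrains the Gli proteins, and Gli3 followed different patterns. Sufu stood at 76.6 and 67.0 CPM in RP1 and RP2 and at 35.1 and 58.7 in RPC1 and RPC2. The RPC animals were lower without overlap, but they differed from each other by more than the RP animals did. RPC against RP gave -0.67 on the log2 scale (SE 0.28, adjusted p = 0.344), and within the 5 shared clusters RPC was below RP in 2, above it in 2 and overlapping in 1. Gli3 stood at 124 and 140.3 in RP and at 92.4 and 177 in RPC, so the RPC animals held both the lowest and the highest value. RPC against RP gave -0.02 (SE 0.33, adjusted p = 0.980). Sufu lies on chromosome 19 (GRCm39, 46385324 to 46477243, plus strand) and Gli3 on chromosome 13 (15637809 to 15904611, plus strand).

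Hhip and Smo were low in tumor-like nuclei. Hhip, the ligand trap, stood at 1.09 and 4.87 CPM in the RP animals and at 0.794 and 1.67 CPM in the RPC animals, so RP2 alone was high. Its sublibraries, at 3.41 to 6.54, lay above every sublibrary of the other animals, the highest of which was 2.71. The log2 fold change of RPC against RP, -1.32 (SE 0.79, adjusted p = 0.456), was 0.11 without RP2. Smo stood at 0.470 and 0.473 in RP and at 0.605 and 0.308 in RPC, and RPC against RP gave -0.10 (SE 0.48, adjusted p = 0.936). Over the 4 animals this rested on 72 transcripts of Smo in tumor-like nuclei.

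Gli1, the target gene most often used to read the pathway, was barely detected in tumor-like nuclei. There were 7 and 1 transcripts in RP1 and RP2 and 3 and 5 in RPC1 and RPC2, out of 153491390 transcripts. Gli1 and Shh did not pass the filter on low counts, so 7 of the 9 genes were tested between genotypes.

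Gli2, the main activator, was higher in both RPC animals. It lies on chromosome 1 (GRCm39, 118761858 to 118982598, minus strand). Tumor-like nuclei held 1.16 and 1.42 CPM in RP1 and RP2 and 3.19 and 3.63 in RPC1 and RPC2, without overlap, from 32, 39, 169 and 165 transcripts. The log2 fold change was 1.35 (SE 0.33), 2.55-fold, with an unadjusted p of 0.00848 and an adjusted p of 0.272 in edgeR. DESeq2 gave 1.39 (SE 0.42) with an adjusted p of 0.0324, which passed. When all kept nuclei were summed, stromal nuclei included, the log2 fold change was 0.17 (adjusted p = 0.799).

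In RPC1 the Gli2 transcripts came largely from 1 cluster. It was led by Grik2, Lrrtm4, Erbb4 and Nrxn3, genes best known from neurons, and is called the Grik2-led cluster here, a name given after its values were seen. Its neuron marker score of 0.43 lay under the limit of 1 for a name. It held 639 nuclei, 584 of them from RPC1. These 584 made up 6.36% of the tumor-like nuclei of RPC1 and 11.7% of their transcripts, but held 138 of the 169 Gli2 transcripts (81.7%). Gli2 stood at 22.3 CPM in the cluster and at 0.663 in the other tumor-like nuclei of RPC1, which is below both RP animals. In RPC2 it was 3.51 outside the cluster. Of its 165 Gli2 transcripts, 109 lay in a cluster of 2426 of its 8675 tumor-like nuclei, at 4.30 CPM. That cluster was deep, at 1.86 times the median depth of an animal, and 4.30 was near the 3.63 of all these nuclei. These 109 transcripts are thus no concentration like that of RPC1. Other clusters of RPC2 with at least 50 nuclei reached 13.6 CPM, a value that rested on 251 nuclei and few transcripts. Without the Grik2-led cluster the log2 fold change was 0.67 (adjusted p = 0.711), and the genotypes overlapped. In the 5 shared clusters Gli2 was higher in RPC in 2 and overlapped in 3. The RPC values of those 2 rested on few transcripts. One held 61 nuclei of RPC1 and 251 of RPC2, and the other 132 of RPC2.

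Boc, the co-receptor, shared this cluster. It stood at 0.832 and 1.85 CPM in RP and at 2.87 and 1.21 in RPC, and RPC against RP gave 0.55 (SE 0.60, adjusted p = 0.676). Of the 152 Boc transcripts in tumor-like nuclei of RPC1, 110 (72.4%) lay in the Grik2-led cluster, at 17.8 against 0.899 CPM elsewhere. Without the cluster the log2 fold change was -0.37.

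The other pathway genes placed Gli2 and Boc within a small group in that cluster. Of the 42 pathway genes with at least 50 transcripts in tumor-like nuclei of RPC1, 5 had over 50% of them in the cluster, and the median gene had 12.4%. Besides Gli2 and Boc these were Evc with 85.8% and Evc2 with 72.7%, ciliary proteins that act with Smo. The last was Gpc3 with 65.3%, a membrane proteoglycan that binds Hedgehog ligand. Gpc3 was not particular to this cluster, where it stood at 20.7 CPM. The tumor-like nuclei of RP1 stood at 38.3 on the TMM scale, against 2.75 to 3.60 in the other animals. Evc stood at 21.5 CPM in the cluster and 0.471 outside it. Ptch1 (67.9 against 49.1) and Sufu (53.7 against 32.7) differed little in comparison, Gli3 was 76.3 against 94.5, and no Gli1 or Shh transcript was found in it. The summed neuroendocrine markers were alike, at 5328 in the cluster and 5375 outside it, while summed fibroblast markers were 60.2 against 13.2. Summed B cell markers (39.9 against 8.09), endothelial markers (40.3 against 22.5), ciliated markers (153 against 87.5) and neuron markers (1455 against 1160) were higher in the cluster as well. So were alveolar type 1 (197 against 149), macrophage or monocyte (42.9 against 29.3) and smooth muscle or pericyte markers (15.5 against 12.8). T or NK cell (835 against 1445), Schwann or glial (265 against 321), club (126 against 155) and mesothelial markers (7.76 against 11.8) were lower. Alveolar type 2 (129 against 127) and neutrophil markers (1.13 against 1.07) were alike. Of the 8 fibroblast markers, Pdgfra (18.6 against 1.31) and Fbln1 (28.1 against 0.428) made up most of the sum, whereas Dcn was lower in the cluster (1.13 against 3.19). The values of the cluster come from 1 animal and were not tested.

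**Figure D3:**
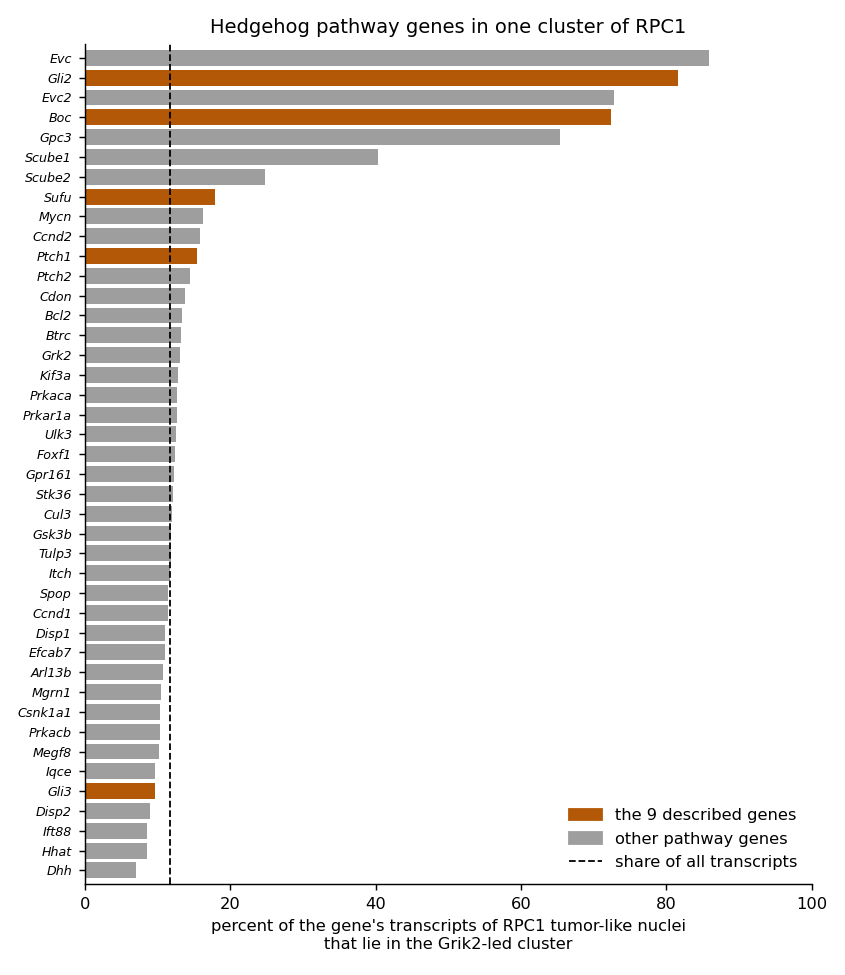
Share of each pathway gene's transcripts in tumor-like nuclei of RPC1 that lay in the Grik2-led cluster, for the 42 genes with at least 50 such transcripts. The dashed line marks the 11.7% of all transcripts held by the cluster. Evc, Gli2, Evc2, Boc and Gpc3 exceed 50%, and most other genes lie near the line.

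Of the 7 members tested between genotypes in tumor-like nuclei, none passed an adjusted p of 0.05 in edgeR, where 0% of the 20110 tested genes passed. At an unadjusted p under 0.05 there were 2 members, Ptch1 and Gli2, beside 15.2% of all genes (3057). The genotypes did not overlap in 3 members, Ptch1, Sufu and Gli2, beside 50.3% of all genes. In DESeq2 1 member, Gli2, passed, beside 4.19% of 15940 genes (668). Smo, Gli1 and Shh had no adjusted p in that fit. The members without overlap thus made up no larger share than among all genes. Summed fibroblast markers in tumor-like nuclei were 35.8 and 61.0 CPM in RP and 18.7 and 22.0 in RPC, and summed smooth muscle or pericyte markers were 22.0 and 13.7 in RP and 13.2 and 11.3 in RPC. Their part in these differences was not tested.

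**Figure D4:**
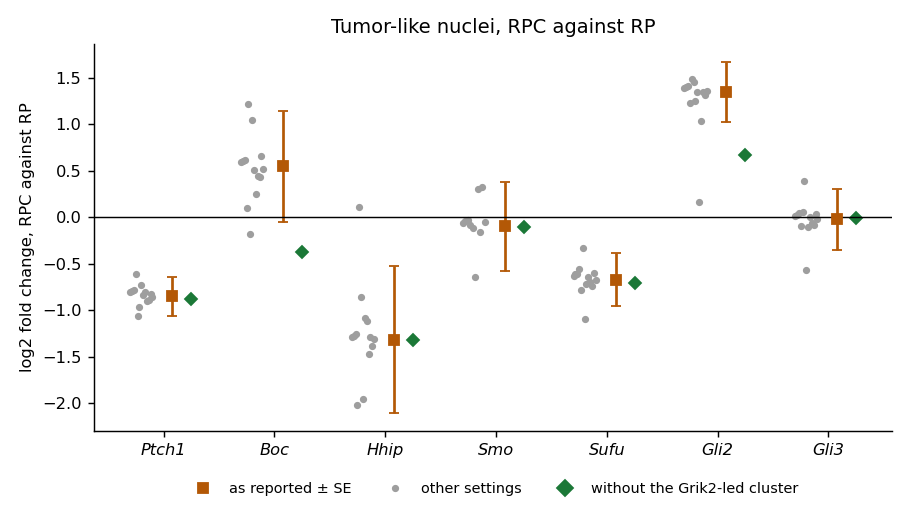
Log2 fold change of RPC against RP in tumor-like nuclei for the 7 tested genes. Squares with bars give the reported value and its SE, small points the other processing settings, and diamonds the value without the Grik2-led cluster. Ptch1 and Sufu stay below 0 in every setting run, and Gli2 moves from 1.35 to 0.67 without the cluster.

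The other pathway genes were followed by role in the same comparison. Of 47 genes, 41 were tested by edgeR and none passed, 4 had an unadjusted p under 0.05, beside 15.2% of all genes, and the median log2 fold change was -0.02 against -0.01 for all genes. By role, 1 of 7 genes for the ligand and its release, 0 of 4 for reception at the membrane, 1 of 12 for relay at the primary cilium, 2 of 12 for handling of Gli proteins and 0 of 6 target genes had an unadjusted p under 0.05. Ulk3, a kinase that acts on Gli proteins, was 14.7 in both RP animals and 7.01 and 7.80 in the RPC animals on the TMM scale (log2 fold change -0.99, SE 0.22, adjusted p = 0.272). Scube2, which helps release the ligand, was 4.56 and 8.03 in RP and 17.9 and 11.4 in RPC (1.22, SE 0.39, adjusted p = 0.291). Prkacb, a catalytic subunit of protein kinase A, was 105 and 103 in RP and 145 and 132 in RPC (0.41, SE 0.13, adjusted p = 0.292). Gpr161, a ciliary receptor that keeps protein kinase A active, was 12.2 and 14.3 in RP and 9.37 and 6.40 in RPC (-0.75, SE 0.28, adjusted p = 0.321).

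Outside the tumor, Gli2, Boc and Gli1 were highest in mesenchymal and mesothelial classes when pooled over animals. Smo was highest in mesothelial-like nuclei (151 CPM pooled) and then in fibroblast-like nuclei (53.96 CPM). Its pooled level in smooth muscle or pericyte-like nuclei (15.57 CPM) was close to that in club-like nuclei (14.97 CPM), an epithelial class. In the 401 smooth muscle or pericyte-like nuclei, Gli2 stood at 72.6 and 77.9 CPM in RP1 and RP2 and at 73.6 and 40.5 in RPC1 and RPC2. All 4 values were far above the tumor-like level of the same animal. The log2 fold change against tumor-like nuclei was 4.92 (SE 0.34, adjusted p = 4.92e-14), about 30.4-fold. Boc stood at 33.7 and 57.1 in RP and 49.4 and 27.5 in RPC, or 4.67 on the log2 scale against tumor-like nuclei (SE 0.30, adjusted p = 9.58e-15). Smo stood at 23.3 and 15.4 in RP and 14.1 and 12.2 in RPC, or 5.09 on the same scale (SE 0.45, adjusted p = 3.04e-11).

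These 3 genes were the members called in this class, of 6 that passed the filter, beside 20.2% of 11703 genes. Gli3, Ptch1 and Sufu had log2 fold changes of 0.18 to 0.33 and did not pass, although Ptch1 passed in DESeq2 (0.38, adjusted p = 0.0433). The class is not pure smooth muscle or pericyte, since summed fibroblast markers reached 503 to 1718 CPM in it. Gli1 was counted 20 times there, which is 39.2% of its 51 transcripts in a class that holds 2.05% of all transcripts, at 6.48 and 7.68 CPM in RP and 6.05 and 1.53 in RPC. It did not pass edgeR's filter, and DESeq2 gave 5.68 on the log2 scale against tumor-like nuclei (SE 1.11, adjusted p = 6.07e-06). The same fit gave Gli1 3.23 (SE 1.47) in T or NK cell-like nuclei, where no Gli1 transcript was counted. The size of the difference is therefore uncertain. Gli1 lies on chromosome 10 (GRCm39, 127165751 to 127177865, minus strand).

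The fibroblast-like nuclei, 52 in all, held the highest levels of Boc and Hhip. RP1 had only 2 of them. In RP2, RPC1 and RPC2, in this order, Boc stood at 278, 282 and 226 CPM and Gli2 at 673, 365 and 155 CPM. Hhip stood at 348, 35.3 and 71.4 CPM on 15, 3 and 6 transcripts, so RP2 was far above the others. A fit that admitted classes of at least 10 nuclei, added after the class sizes were seen, gave log2 fold changes against tumor-like nuclei of 7.23 for Gli2 (SE 0.48, adjusted p = 5.06e-16), 7.16 for Boc (SE 0.42, adjusted p = 5.93e-18), 6.84 for Smo (SE 0.87, adjusted p = 2.76e-08) and 5.72 for Hhip (SE 0.58, adjusted p = 1.10e-09). Ptch1 (1.15, SE 0.36, adjusted p = 0.0113) and Sufu (0.90, SE 0.31, adjusted p = 0.0395) passed as well, whereas Gli3 (-0.09, adjusted p = 0.898) did not. Of 7 members tested here 6 passed, beside 32.2% of 11012 genes. The median of all genes in this contrast was -0.41 on the log2 scale.

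Mesothelial-like nuclei numbered 36 and entered no fit. Pooled over animals, Gli2 reached 371 CPM (exact Poisson 95% interval 279 to 484), Smo 151 (94.8 to 229), Ptch1 199 (133 to 286) and Gli1 41.2 (15.1 to 89.8), the latter on 6 transcripts. These intervals cover counting error only. The Gli2 intervals of the mesothelial-like and fibroblast-like classes (342, 269 to 428) overlapped. The animals differed widely, with Gli2 from 50.3 to 611 CPM, Ptch1 from 0 to 361 and Smo from 81.5 to 222. The Smo values of the animals overlapped with those of the fibroblast-like class, at 35.7 to 98.0.

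**Figure D5:**
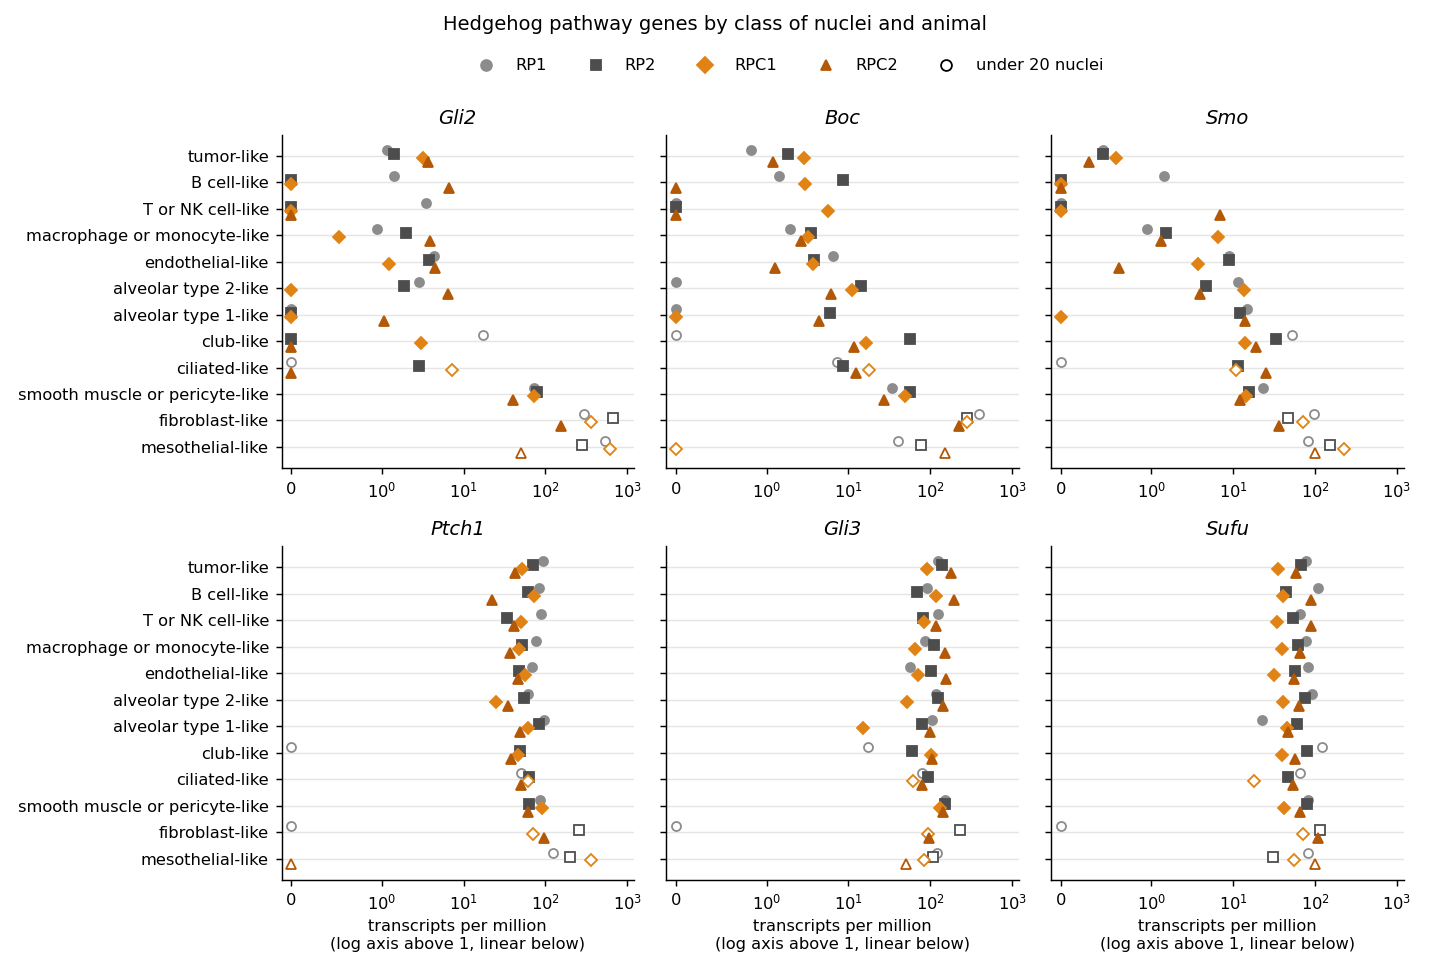
Levels of 6 genes by class of nuclei and animal, in CPM on an axis that is logarithmic above 1 and linear below. Filled points rest on at least 20 nuclei and open points on fewer. Gli2 and Boc lie more than an order of magnitude above their tumor-like levels in smooth muscle or pericyte-like and fibroblast-like nuclei, while Ptch1, Gli3 and Sufu stay near their tumor-like levels in most classes.

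Smo was higher in the epithelial classes than in tumor-like nuclei, Boc in part of them and Gli2 in none. Smo was higher than in tumor-like nuclei in alveolar type 1-like nuclei (log2 fold change 4.95, SE 0.63, adjusted p = 1.01e-07) and alveolar type 2-like nuclei (3.82, SE 0.51, adjusted p = 3.99e-07). In the added fit it was higher in club-like nuclei (5.52, SE 0.51, adjusted p = 1.15e-11) and ciliated-like nuclei (4.88, SE 0.73, adjusted p = 1.17e-06). Club-like nuclei alone held 190 of the 464 Smo transcripts, 165 of them from RPC1, which had 716 of the 924 nuclei of this class. Boc was higher in alveolar type 2-like nuclei (2.42, SE 0.35, adjusted p = 1.76e-06), club-like nuclei (3.57, SE 0.37, adjusted p = 2.00e-10) and ciliated-like nuclei (2.81, SE 0.61, adjusted p = 0.000495). It was not called in alveolar type 1-like nuclei, where 6 transcripts gave 3.93 CPM. Gli2 passed in none of these 4 classes, with log2 fold changes of -1.92 to 0.63. Gli3 was lower in alveolar type 1-like nuclei (-0.76, SE 0.23, adjusted p = 0.00797), and this call was lost without RPC2 (-0.73, adjusted p = 0.0636).

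The members called numbered 2 of 6 in alveolar type 1-like nuclei beside 33.0% of all genes, 2 of 6 in alveolar type 2-like nuclei beside 16.7%, 2 of 7 in club-like nuclei beside 25.7% and 2 of 7 in ciliated-like nuclei beside 21.4%. In endothelial-like nuclei Smo alone passed (3.27, SE 0.63, adjusted p = 0.000159), 1 of 6 beside 17.7%. In macrophage or monocyte-like nuclei Smo alone passed too (2.45, SE 0.57, adjusted p = 0.000864), 1 of 6 beside 34.9%, and this call was lost without RPC1 (1.62, adjusted p = 0.134). None of 6 passed in B cell-like nuclei, where 10.8% of genes did, or in T or NK cell-like nuclei, where 12.1% did. At an unadjusted p under 0.05 there were 1 (Sufu) and 0 members in these last classes, beside 2618 and 2717 of 11703 genes. DESeq2 called no member in either, beside 1554 of 19056 and 1637 of 19761 genes.

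Genotype differences within the stroma were tested in 3 classes. In smooth muscle or pericyte-like nuclei all 6 tested members had negative log2 fold changes of RPC against RP, beside 5121 of all 10079 genes. They ran from -0.70 for Sufu (SE 0.29, adjusted p = 0.40) to -0.09 for Ptch1 (SE 0.29, adjusted p = 0.922). With 1 animal left out, Ptch1 reached 0.16 and Boc 0.061. None of the members passed, where 0.0397% of 10079 genes did. Gli2 there was -0.53 (SE 0.31, adjusted p = 0.521), opposite in sign to tumor-like nuclei, and the difference between the classes was not tested. In macrophage or monocyte-like nuclei Ptch1 was -0.70 (SE 0.27, adjusted p = 0.392) and none of 3 passed, where 0.00843% of genes did. In endothelial-like nuclei Ptch1 was -0.23 (SE 0.30, adjusted p = 0.783) and none of 3 passed, where 0.0423% did. At an unadjusted p under 0.05 there was 1 member in each of the first pair of classes (Sufu, then Ptch1) and 0 in the endothelial-like class. Among all genes this level was met by 1233 of 10079, 1425 of 11867 and 1171 of 9461, in the same order. No member passed in DESeq2, where 33 of 9465, 42 of 8723 and 37 of 9286 genes did. The fibroblast-like class had under 20 nuclei in 3 animals and was not compared between genotypes. The alveolar classes were not fitted between genotypes either. There Ptch1 stood at 58.0 ± 3.69 CPM in RP and 29.6 ± 7.09 in RPC (type 2-like), and at 90.4 ± 8.39 and 54.7 ± 8.68 (type 1-like, SD, n = 2). Its mean was not lower in RPC in smooth muscle or pericyte-like, club-like, mesothelial-like or unnamed nuclei.

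Some of the other pathway genes also differed between the smooth muscle or pericyte-like class and tumor-like nuclei. Of 31 tested genes 6 were higher and 1 lower, a share near the 20.2% of all genes called, with a median log2 fold change of 0.04 against -0.05 for all genes. Scube1, a secreted protein of ligand release, was higher (4.94, SE 0.38, adjusted p = 9.67e-13), as were Gpc3 (3.70, SE 0.43, adjusted p = 1.25e-08) and Lrp2, an endocytic receptor that binds Shh (1.94, SE 0.60, adjusted p = 0.0186). Among target genes Ccnd2, a cyclin, was higher (4.32, SE 0.37, adjusted p = 1.17e-11), as was Bcl2, which blocks apoptosis (1.01, SE 0.18, adjusted p = 5.57e-05). Disp2, related to the ligand-releasing Disp1, was lower (-0.51, SE 0.12, adjusted p = 0.00135). No gene for relay at the cilium (10 tested) or handling of Gli proteins (10 tested) passed.

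In the remaining classes the pathway genes called were 7 of 31 in alveolar type 1-like, 3 in alveolar type 2-like, 4 in B cell-like, 6 in endothelial-like, 10 in macrophage or monocyte-like and 5 in T or NK cell-like nuclei. In the same order 33.0%, 16.7%, 10.8%, 17.7%, 34.9% and 12.1% of all genes were called, so no class stood out by the share of pathway genes called. Ccnd2 was higher than in tumor-like nuclei in each of these, from 1.93 on the log2 scale in alveolar type 2-like to 5.39 in T or NK cell-like nuclei. Lrp2 was higher in alveolar type 2-like (5.78, SE 0.36, adjusted p = 3.04e-14) and alveolar type 1-like nuclei (4.62, SE 0.53, adjusted p = 1.95e-08). Scube1 was higher in endothelial-like nuclei (2.42, SE 0.50, adjusted p = 0.000394). Grk2, a kinase that phosphorylates Smo, was higher in B cell-like (1.08), T or NK cell-like (0.82) and macrophage or monocyte-like nuclei (0.87, SE 0.14, adjusted p = 6.34e-06). Cdon, the co-receptor related to Boc, went the other way, at -0.98 in alveolar type 1-like (SE 0.22, adjusted p = 0.000710), -0.60 in endothelial-like and -0.47 in macrophage or monocyte-like nuclei.

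Ptch1, Gli3 and Sufu in other classes were read against the neuroendocrine markers counted in those classes. In alveolar type 1-like nuclei, where the median neuroendocrine marker was at 33.0% to 61.2% of the tumor-like level, Ptch1 was at 103% to 121% of it in the 4 animals. Ptch1 also lay above the marker range in smooth muscle or pericyte-like (91.3% to 179%, markers 66.2% to 82.5%) and ciliated-like nuclei (90.7% to 116%, markers 54.8% to 58.7%, 2 animals). Its range overlapped with that of the markers in alveolar type 2-like (48.0% to 80.5%, markers 57.2% to 87.5%), T or NK cell-like (48.5% to 99.3%, markers 74.7% to 86.0%) and endothelial-like nuclei (67.7% to 109%, markers 74.0% to 86.3%). The ranges overlapped in B cell-like, club-like and macrophage or monocyte-like nuclei too. Sufu was at 107% to 119.6% in smooth muscle or pericyte-like and 108% to 120.5% in alveolar type 2-like nuclei, above the marker range in both, but at 29.0% to 130% in alveolar type 1-like nuclei. Gli3 ranged from 16.5% to 83.8% in alveolar type 1-like nuclei and from 81.5% to 143% in smooth muscle or pericyte-like nuclei. In the fibroblast-like nuclei of RPC2, with markers at 7.73%, Ptch1 was at 221%, Sufu at 182% and Gli3 at 53.7% of the tumor-like level.

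The genes whose levels followed each member most closely were taken over 38 sums of 1 animal and class, in 11 classes. Sums of an animal share their libraries and the neuroendocrine RNA found in most classes, so the correlations are a description. Only sums of at least 20 nuclei entered, so the fibroblast-like class gave 1 sum (RPC2) and the mesothelial-like class none. Hhip was at most 10.7 CPM in the sums of the other classes. Its correlations, that with Gli2 included, therefore rest largely on the fibroblast-like sum. Gli2 ran with Tbx4 (Pearson r = 0.96), Prdm6 (0.96) and Tbx2 (0.95), all transcription factors. Hhip ran with Adra1a (0.92), Ano5 (0.90) and Gm16126 (0.90), Boc with Gnai1 (0.90), Slit2 (0.89) and Lpar1 (0.88), and Smo with Gpc4 (0.82), 9530026P05Rik (0.82) and Pakap (0.81). For Gli3 the closest were Zfyve28 (0.83), Mettl25 (0.80) and Opcml (0.76), for Sufu Acbd3 (0.75), Slc25a42 (0.73) and Banf2 (0.71), and for Ptch1 Cped1 (0.67) and Nlgn2 (0.66). Among the members themselves, Boc and Gli2 (0.73), Boc and Smo (0.71) and Hhip and Gli2 (0.68) were the closest pairs, and Ptch1 and Gli3 were unrelated (-0.03).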

How the data were processed

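Per the labels and the study's methods, the authors aligned the Parse Evercode reads to GRCm39 with the Parse pipeline and deposited raw transcript counts per nucleus and gene, 1 matrix per animal over 7 sublibraries. Of the 12 columns of the deposited table of nuclei, 9 were not used. Kept nuclei had at least 300 counts, at most 10% of them mitochondrial, and at most 12000 genes. Nuclei were clustered (2000 variable genes, 20 principal components, resolution 0.4) without the 9 members and 47 other pathway genes, and named from 15 marker lists by a rule set after the clusters were seen. No doublet caller was run. Counts were summed per animal and class (at least 20 nuclei) and tested with edgeR 4.0.16 under R 4.3.3 (TMM, filterByExpr, quasi-likelihood, Benjamini-Hochberg), with DESeq2 1.42.0 as an alternative and the animal as a block between classes. The fits were tested on simulated data. Levels (CPM) are relative to all transcripts of the class; intervals (exact, 95%) cover counting error only. Nothing says whether animals were littermates. Positions and lengths are from GENCODE vM39 (GRCm39), which may differ from the authors' annotation. Named genes were the members, other pathway genes without overlap at an unadjusted p under 0.05 (or adjusted), the 2 smallest p per role in class contrasts, and the 3 closest by correlation for members with 200 transcripts; a gene of the last set is not reported here. The members and lists were chosen with earlier results of these data known. Genes singled out in the Grik2-led cluster were chosen after their values were seen.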

Additional observations from a re-analysis of the deposited data

How the results depend on the processing

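With 2 animals per genotype, edgeR called no gene between genotypes in tumor-like nuclei. The count was 668 in DESeq2, 10 without a filter on low counts, and 0 to 3 when 1 animal was left out (3 without RPC2). In the smooth muscle or pericyte-like, the endothelial-like and the macrophage or monocyte-like class, the counts of 4, 4 and 1 became 387, 350 and 493 without the filter and 33, 37 and 42 in DESeq2. Leaving out 1 animal gave 0 to 51, 24 to 390 and 1 to 31 in these classes. Against tumor-like nuclei, admitting sums of at least 10 nuclei, chosen after seeing the data, gave 1183 genes for alveolar type 2-like, 774 for B cell-like and 1361 for endothelial-like nuclei. Leaving out 1 animal gave 1160 to 1867, 773 to 1022 and 1239 to 1876 in these, 1473 to 2007 in smooth muscle or pericyte-like and 793 to 1303 in T or NK cell-like nuclei. The causes of these shifts were not tested. Without thinning, the shares of nuclei with a transcript were 23.2% and 18.1% for Ptch1, 30.5% and 34.5% for Gli3 and 21.1% and 18.2% for Sufu in RP and RPC.

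Of the genotype contrasts of the members in tumor-like nuclei, 82 of the values under other settings kept direction and side of the threshold, 12 changed sign and 1, Gli2 in DESeq2, came to pass. Over all settings Ptch1 ranged from -1.06 to -0.61 and Sufu from -1.09 to -0.33. The sign changes concerned values near 0 or resting on 1 animal. Gli3 was 0.011 in DESeq2, 0.030 with library size only, 0.042 without the filter, 0.0084 in all kept nuclei and 0.039 in even sublibraries, and -0.57 to 0.39 with 1 animal left out. Smo was 0.33 in all kept nuclei and -0.64 to 0.30 with 1 animal left out. Boc was -0.37 without the Grik2-led cluster and -0.18 to 1.22 with 1 animal left out, and Hhip -2.02 to 0.11. In the other classes leaving out 1 animal gave -0.38 to 0.16 for Ptch1 and -0.81 to 0.061 for Boc (smooth muscle or pericyte-like), -0.32 to 0.96 for Gli3 and -0.50 to 0.041 for Ptch1 (endothelial-like) and -0.79 to 0.52 for Gli3 (macrophage or monocyte-like).

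Of the class contrasts, 316 values kept direction and side, 5 came to pass, 2 ceased to and 13 changed sign. None of the sign changes touched a call. Without the filter Gli2 was -0.065 in B cell-like and Sufu -0.016 in macrophage or monocyte-like nuclei, and in DESeq2 Boc was 0.077 in T or NK cell-like nuclei. Leaving out 1 animal gave -0.15 to 0.97 for Gli2 in alveolar type 2-like nuclei and -0.68 to 0.23 in macrophage or monocyte-like nuclei. In B cell-like nuclei it gave -4.50 to 0.75 for Smo, -0.35 to 0.0079 for Ptch1, -0.15 to 0.73 for Boc and -1.13 to 0.61 for Gli2. In T or NK cell-like nuclei it gave -4.54 to 2.05 for Smo, -5.68 to 0.034 for Boc and -0.28 to 0.042 for Sufu.

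Animals share only a number between genotypes (correlation of deviations -0.05), so they were not paired. With the replicate block edgeR called 0 genes in tumor-like nuclei, and Gli2 was 1.35 (adjusted p = 0.356). With 2 animals per genotype, low-count members (Smo, Hhip, Boc, Gli2 in tumor-like nuclei) rest on 13 to 169 transcripts per animal, and Gli1 and Shh on 7 or fewer.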
